A study of Mus musculus with 12 samples.

Results

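The genes of lipogenesis and triglyceride storage were followed as a set of 35 genes, taken by symbol from the 22609 genes of the count tables. All 35 symbols were found, and all 35 passed the filter on low counts. The set was a fixed list of names, and no measured value entered its rule. It was, however, chosen with earlier results of these data known. RNA was sequenced from livers of untreated adult mice, 3 per genotype. AEG1_MYC mice carried both an AEG-1 and a c-Myc transgene, MYC mice the c-Myc transgene alone, AEG1 mice the AEG-1 transgene alone, and wild-type (WT) mice neither. All came from crosses of heterozygous Alb/AEG-1 with heterozygous Alb/c-Myc mice, so the AEG1, MYC and WT animals were of the same crosses as the AEG1_MYC animals. The albumin promoter of such lines drives a transgene in hepatocytes. The gene Mtdh encodes AEG-1, astrocyte elevated gene-1, and Myc encodes c-Myc, a transcription factor that drives cell growth. The series is on how these proteins act together in liver cancer. The labels call each library a mouse but give no sex, age in weeks, litter, feeding state, time of collection or batch.

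The liver makes fatty acids from citrate that leaves the mitochondria. ATP citrate lyase (Acly) splits citrate to acetyl-CoA, acetyl-CoA carboxylase (Acaca, Acacb) makes malonyl-CoA, and fatty acid synthase (Fasn) joins these units into palmitate. Desaturases and elongases then modify the chain, acyltransferases join it to glycerol, and the triglyceride is kept in lipid droplets or leaves in lipoproteins. Insulin acts on this pathway through SREBP-1c, a product of Srebf1, and carbohydrate through ChREBP, the product of Mlxipl.

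Values are given as CPM, the standard unit of reads relative to a library's scaled size, for the replicates 1, 2 and 3 of a genotype in that order. The libraries held 21931197 to 40552316 reads assigned to genes, where 3 reads correspond to 0.0753 to 0.146 CPM. Differences are log2 fold changes ± SE from edgeR's quasi-likelihood test, and a gene was called at a Benjamini-Hochberg adjusted p under 0.05 over the 13684 genes tested. These p-values judge a difference against the spread between the 3 mice within genotypes. That spread was estimated once per gene over all 12 libraries, with information shared across genes, and not for each genotype alone.

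Myc checked the MYC label: it stood at 58.4 to 165 CPM in AEG1_MYC, 23.4 to 53.8 CPM in MYC, 3.54 to 4.59 CPM in AEG1 and 2.26 to 4.73 CPM in WT livers. The species of the AEG-1 transgene is not given in the labels, so no count checked the AEG1 label. The 8 hepatocyte markers were read in every library and summed to 46832 to 85551 CPM in AEG1_MYC, 79635 to 97485 CPM in MYC, 92222 to 102211 CPM in AEG1 and 116903 to 123509 CPM in WT livers. In whole liver, fewer cells of a type and less RNA per cell cannot be told apart. AEG1_MYC replicate 2 stood apart from the other libraries. Its periportal genes were low, with Cyp2f2 at 2.70 CPM against 508 to 1598 CPM elsewhere. Its pericentral Glul was at 15863 CPM against 493 to 3070.5 CPM elsewhere. Its Y-linked Ddx3y was at 3.94 CPM against 90.8 to 158 CPM elsewhere. The X-linked Xist was at 0.533 CPM in it, within the 0.0383 to 0.781 CPM of all 12 libraries. In AEG1_MYC replicate 1, Saa1, an acute-phase gene, stood at 3331 CPM, against at most 45.0 CPM in any other library. For the members called, and for those whose value rests most on one of these livers, the value without it is given below.

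Across the set, few genes passed and many leaned. In AEG1_MYC against WT livers 2 of 35 members were called, Mogat2 and Elovl7, both higher, where 0.263% of all genes were called. In AEG1_MYC against AEG1 livers 2 were called, Elovl7 higher and Aacs lower, where 0.322% of all genes were. In the test of any difference among the 4 genotypes 2 were called, Mogat2 (adjusted p = 0.0200) and Elovl7 (adjusted p = 0.0225), where 0.519% of all genes were. An unadjusted p under 0.05 was reached by 12 members against WT (17.2% of all genes reached it), by 17 against AEG1 (17.4% of all genes) and by 14 in the test of any difference (12.7% of all genes). DESeq2 called 6, 13 and 12 members in these tests, where it called 4.77%, 5.13% and 5.35% of all genes with an adjusted p. Its 6 against WT were Mogat2, Elovl7, Elovl5, Plin4, Scd2 and Pnpla3. With limma 1, 1 and 0 members were called, where 0.168%, 0.424% and 0.197% of all genes were. These calls lay near the threshold. Leaving out any 1 library other than AEG1_MYC replicate 3 left 0 members called against WT, and leaving out AEG1_MYC replicate 3 left 6. Against AEG1, 0 members were called without AEG1 replicate 1, 2 or 3, 11 without AEG1_MYC replicate 3 and 1 without any 1 of the other 8 libraries.

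In the other contrasts edgeR called 0 members. In MYC against WT livers, edgeR called 0% of all genes. There 1 member had an unadjusted p under 0.05, as had 3.47% of all genes, and DESeq2 and limma called 0 members (0.205% and 0% of all genes). In AEG1 against WT livers, edgeR again called 0% of all genes. There 2 members, Aacs and Elovl6, had an unadjusted p under 0.05, as had 3.92% of all genes. The same 2 were called in DESeq2 (0.11% of all genes) and 0 in limma (0% of all genes). In AEG1_MYC against MYC livers, edgeR called 0.205% of all genes. There 13 members had an unadjusted p under 0.05, as had 15.2% of all genes, and DESeq2 called 5 (3.44% of all genes) and limma 0 (0.175%). The interaction asks whether the AEG-1 transgene changes a gene by a different amount with c-Myc than without it, and edgeR called 0.0219% of all genes in it. There 11 members had an unadjusted p under 0.05, as had 9.25% of all genes, and DESeq2 called 1, Aacs (1.17% of all genes), and limma 0 (0.0365%).

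The members did not split evenly by sign. In AEG1_MYC against WT livers 22 of 35 log2 fold changes were negative, with a median of -0.24, while 51.6% of all genes tested were positive with a median of 0.01. The groups did not overlap for 3 members that were higher (8.57%, against 9.81% of all genes) and for 8 that were lower (22.9%, against 9.65% of all genes). In MYC against WT livers 23 of 35 were negative, with a median of -0.13, and 3 were higher (8.57%, against 5.47% of all genes) and 5 lower (14.3%, against 6.09%) without overlap. In AEG1 against WT livers 27 of 35 were positive, with a median of 0.31, and 4 were higher (11.4%, against 5.16% of all genes) and 0 lower (against 5.53%) without overlap. In AEG1_MYC against AEG1 livers 25 of 35 were negative, with a median of -0.51, and 2 were higher (5.71%, against 9.6% of all genes) and 13 lower (37.1%, against 8.24%) without overlap. In AEG1_MYC against MYC livers 20 of 35 were negative, with a median of -0.19, and 4 were higher (11.4%, against 9.64% of all genes) and 3 lower (8.57%, against 8.85%) without overlap. In the interaction 24 of 35 were negative, with a median of -0.46. In these other tests 49.4% to 51.3% of all genes were positive. The contrasts share libraries and are not independent of each other. Single livers carried much of the lean: AEG1 replicate 3 had the highest level of all 12 libraries for 19 members, and AEG1_MYC replicate 2 the lowest for 20.

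**Figure D1:**
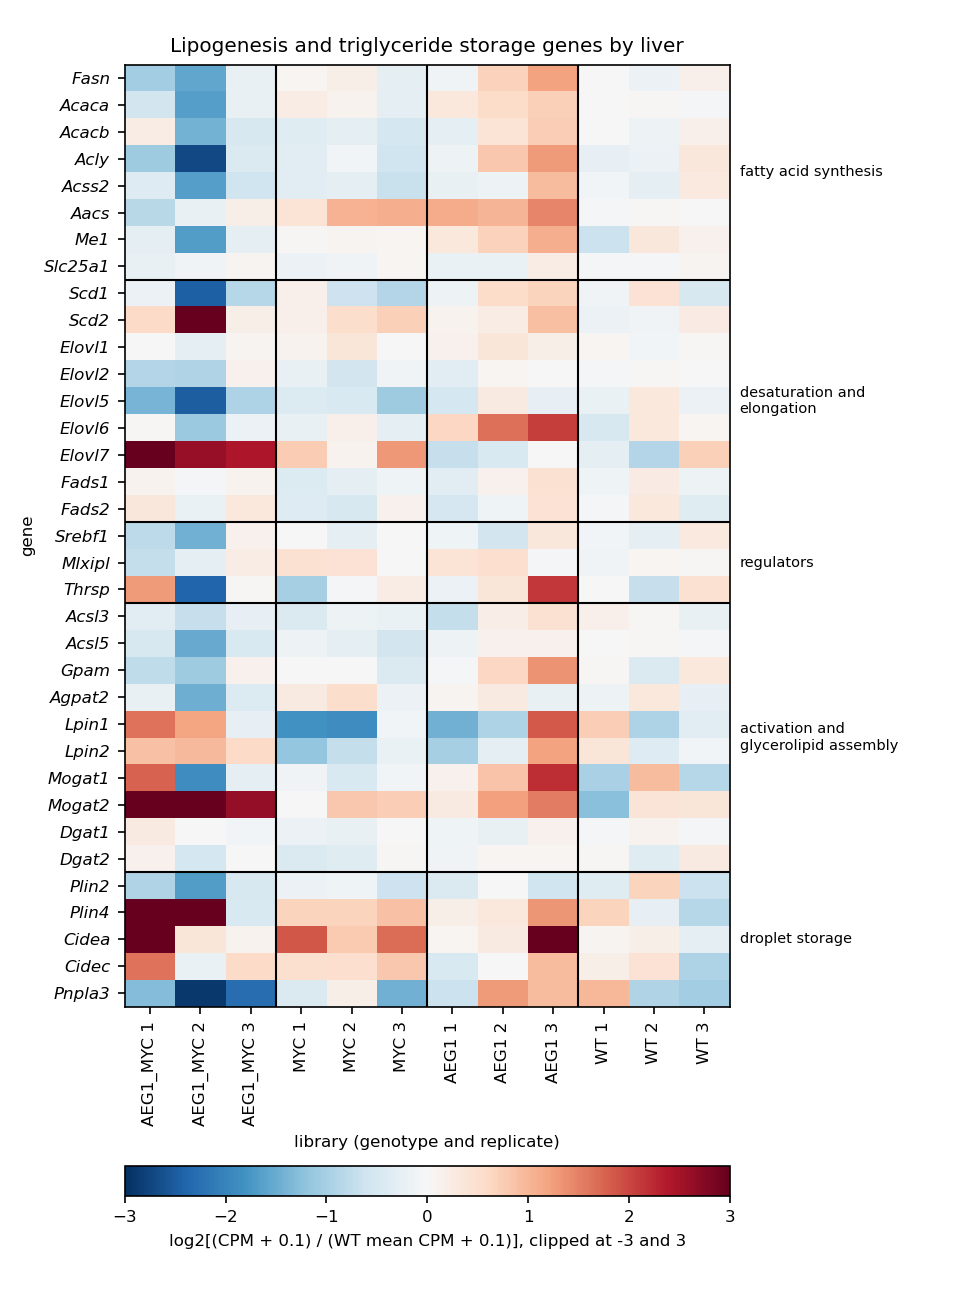
Heat map of the 35 members (rows, grouped by role) in the 12 livers (columns, AEG1_MYC, MYC, AEG1 and WT). Colour gives log2 of a library's CPM over the WT mean CPM, with 0.1 CPM added to each and colours limited at 3 in either direction; AEG1_MYC replicate 2 is blue for most synthesis genes and AEG1 replicate 3 is red for all 8.

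The 8 genes of fatty acid synthesis leaned in opposite directions in AEG1_MYC and AEG1 livers. In AEG1_MYC against WT livers 8 of 8 log2 fold changes were negative, with a median of -0.66. In MYC against WT livers 5 of 8 were negative, with a median of -0.04. In AEG1 against WT livers 7 of 8 were positive, with a median of 0.61. No member of the group was called by edgeR in these contrasts, with 3, 1 and 1 at an unadjusted p under 0.05 (17.2%, 3.47% and 3.92% of all genes). Of these 8, DESeq2 called 0, 0 and 1 (Aacs) in the same contrasts (4.77%, 0.205% and 0.11% of all genes), and limma 0 (0.168%, 0% and 0%). Without overlap with WT, 4 of 8 were lower in AEG1_MYC (50%, against 9.65% of all genes) and 0 higher. In MYC 2 were lower (25%, against 6.09%) and 1 higher (12.5%, against 5.47%), and in AEG1 2 were higher (25%, against 5.16%) and 0 lower. In AEG1_MYC against AEG1 livers 8 of 8 were negative (median -1.29), and 6 lower without overlap (75%, against 8.24%). Per library the group's median log2 ratio to the WT mean was -0.47, -1.61 and -0.25 in AEG1_MYC livers, -0.07, -0.01 and -0.28 in MYC livers, and -0.14, 0.63 and 1.02 in AEG1 livers, against -0.03, -0.11 and 0.14 in WT livers. Every AEG1_MYC liver thus lay below every WT liver in this median, but so did AEG1 replicate 1 and MYC replicate 3, and MYC replicate 3 lay below AEG1_MYC replicate 3. Without AEG1_MYC replicate 2 all 8 stayed negative against WT with a median of -0.33, and without AEG1 replicate 3 the AEG1 livers had 6 of 8 positive with a median of 0.38.

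Aacs, acetoacetyl-CoA synthetase, which activates ketone bodies for lipid synthesis in the cytosol, was the gene of this group that passed. It stood at 81.5, 125 and 164 CPM in AEG1_MYC livers. It stood at 193, 302 and 309.8 CPM in MYC livers and at 316, 298 and 400.4 CPM in AEG1 livers, against 143, 148 and 146 CPM in WT livers. Either transgene alone thus went with levels above all WT livers, while AEG1_MYC livers overlapped WT and lay below all livers of both single-transgene genotypes. Aacs fell in AEG1_MYC against AEG1 livers, by 1.46 ± 0.25 on the log2 scale (adjusted p = 0.0458). That call was lost without AEG1_MYC replicate 1 (-1.22, adjusted p = 0.0503) or replicate 2 (-1.46, adjusted p = 0.128). It was also lost without AEG1 replicate 1 (-1.50, adjusted p = 0.163), replicate 2 (-1.53, adjusted p = 0.177) or replicate 3 (-1.31, adjusted p = 0.0805), and in 14 of 21 alternatives in all. Against MYC livers AEG1_MYC livers differed by -1.12 ± 0.25 (adjusted p = 0.117). AEG1 differed from WT by 1.21 ± 0.25 (unadjusted p = 0.000531 in edgeR, adjusted p = 0.9997), and MYC from WT by 0.88 ± 0.25 (unadjusted p = 0.00476 in edgeR, adjusted p = 0.9994). AEG1_MYC differed from WT by -0.24 ± 0.25. The interaction was -2.33 ± 0.35 (unadjusted p = 4.13e-05 in edgeR, adjusted p = 0.0706), and DESeq2 gave it an adjusted p of 4.3e-07. Aacs read highest of all 12 libraries in AEG1 replicate 3 and lowest in AEG1_MYC replicate 1.

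Fasn was at 783, 547 and 1368 CPM in AEG1_MYC livers. It was at 1676, 1816 and 1303 CPM in MYC livers and at 1480.2, 2608 and 3701 CPM in AEG1 livers, against 1593, 1429 and 1787 CPM in WT livers. All AEG1_MYC livers lay below all AEG1 and all WT livers. The difference between AEG1_MYC and AEG1 was -1.53 ± 0.37 (adjusted p = 0.101 in edgeR), or -1.27 without AEG1_MYC replicate 2, and the interaction was -1.53 ± 0.51 (adjusted p = 0.457). Acaca, the cytosolic carboxylase, was at 53.2, 24.7 and 67.0 CPM in AEG1_MYC livers. It was at 90.9, 84.9 and 65.4 CPM in MYC livers and at 97.0, 115 and 128 CPM in AEG1 livers, against 78.8, 80.1 and 76.2 CPM in WT livers. AEG1 livers all lay above WT and AEG1_MYC livers all below it. Acaca differed by -1.23 ± 0.29 between AEG1_MYC and AEG1 (adjusted p = 0.0997 in edgeR) and by -0.74 ± 0.29 between AEG1_MYC and MYC (adjusted p = 0.270), and its interaction was -1.27 ± 0.40 (adjusted p = 0.429). Without AEG1_MYC replicate 2 the difference from AEG1 was -0.92.

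Acly was at 416, 132 and 641 CPM in AEG1_MYC livers. It was at 689, 813 and 568 CPM in MYC livers and at 776, 1511 and 2103 CPM in AEG1 livers, against 732, 763 and 1100.2 CPM in WT livers. Its AEG1_MYC livers lay below all AEG1 and WT livers, and AEG1_MYC replicate 2 was the lowest of the 12. Malic enzyme 1 (Me1), which yields NADPH for fatty acid synthesis, was at 195, 74.9 and 197 CPM in AEG1_MYC livers. It was at 243, 252 and 248 CPM in MYC livers and at 296, 387 and 505 CPM in AEG1 livers, against 153, 303 and 259.6 CPM in WT livers. Me1 differed by -1.35 ± 0.36 between AEG1_MYC and AEG1 (adjusted p = 0.123 in edgeR), and its interaction was -1.40 ± 0.50 (adjusted p = 0.481). Without AEG1_MYC replicate 2 the difference from AEG1 was -1.02. DESeq2 called Aacs, Acaca, Acly, Fasn and Me1 lower in AEG1_MYC than in AEG1 livers, where it called 5.13% of all genes. Limma with library quality weights called none of the 8 there, and 0.424% of all genes.

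The other 3 genes of the group were not called. Acetyl-CoA synthetase 2 (Acss2), which makes acetyl-CoA from acetate, averaged 255 ± 104 CPM in AEG1_MYC, 327 ± 44.3 in MYC and 539.6 ± 268 in AEG1, against 436 ± 92.5 in WT livers (SD, n = 3 each). All AEG1_MYC livers lay below all WT livers for Acss2, with -0.78 ± 0.37 for AEG1_MYC against WT. Acacb, the carboxylase at the mitochondrial membrane whose malonyl-CoA restrains fatty acid oxidation, averaged 201 ± 107 CPM in AEG1_MYC, 204 ± 18.8 in MYC and 341 ± 112 in AEG1, against 266 ± 28.9 in WT livers. The mitochondrial citrate carrier Slc25a1 stayed within 226 to 304 CPM over all 12 libraries, with log2 fold changes of -0.07, -0.07 and -0.05, each ± 0.14, for AEG1_MYC, MYC and AEG1 against WT.

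**Figure D2:**
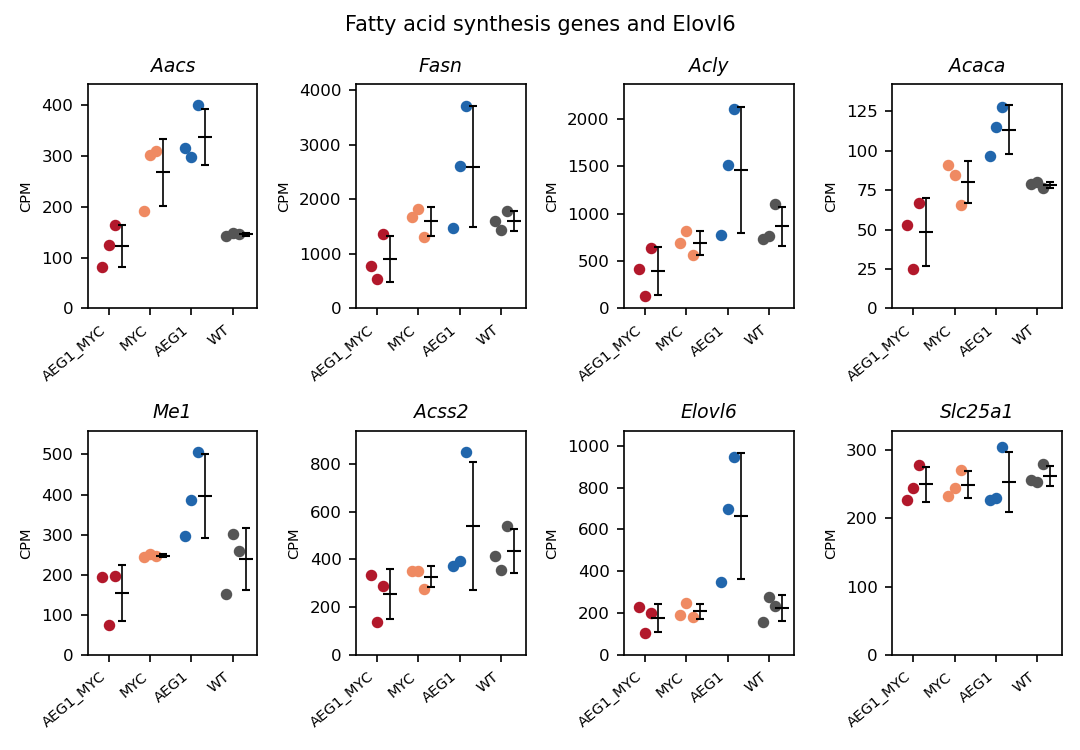
CPM of 7 fatty acid synthesis genes and the elongase Elovl6 in each liver (points, n = 3 per genotype), with the mean ± SD as a bar beside each genotype; the vertical axes start at 0. Aacs lies between 193 and 400.4 CPM in all MYC and AEG1 livers, above all WT livers, and AEG1 replicate 3 is the highest point for Fasn (3701 CPM) and Acly (2103 CPM).

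The promoter windows of 4 members are printed because these genes were called (Aacs, Elovl7) or leaned together without a call (Fasn, Acly). They are RefSeq sequences of build GRCm38.p6, from 250 bases before the start of transcription to 50 after it, 5′ to 3′ on the gene's strand; capitals mark the CCAAT box or its reverse complement. Fasn lies at chr11:120824498-120824797 (minus strand), Acly at chr11:100527951-100528250 (minus strand), Aacs at chr5:125475623-125475922 (plus strand) and Elovl7 at chr13:108214154-108214453 (plus strand).
Fasn: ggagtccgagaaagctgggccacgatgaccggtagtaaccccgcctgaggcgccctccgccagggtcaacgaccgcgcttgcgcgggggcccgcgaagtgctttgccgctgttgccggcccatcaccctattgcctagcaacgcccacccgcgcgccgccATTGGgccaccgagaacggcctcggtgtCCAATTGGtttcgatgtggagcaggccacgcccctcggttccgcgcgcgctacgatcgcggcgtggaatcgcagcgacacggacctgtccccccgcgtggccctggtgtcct
Acly: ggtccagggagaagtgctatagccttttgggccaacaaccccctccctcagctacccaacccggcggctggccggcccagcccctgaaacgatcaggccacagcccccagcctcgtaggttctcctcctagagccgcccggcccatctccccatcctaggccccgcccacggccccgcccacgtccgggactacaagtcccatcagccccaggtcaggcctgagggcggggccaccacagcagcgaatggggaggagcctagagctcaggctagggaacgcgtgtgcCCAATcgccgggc
Aacs: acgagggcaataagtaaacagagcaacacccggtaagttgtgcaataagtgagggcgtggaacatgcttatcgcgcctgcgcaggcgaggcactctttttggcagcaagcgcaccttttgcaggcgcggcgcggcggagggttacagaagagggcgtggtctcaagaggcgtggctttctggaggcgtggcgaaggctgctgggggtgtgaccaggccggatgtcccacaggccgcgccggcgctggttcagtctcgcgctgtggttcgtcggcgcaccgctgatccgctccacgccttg
Elovl7: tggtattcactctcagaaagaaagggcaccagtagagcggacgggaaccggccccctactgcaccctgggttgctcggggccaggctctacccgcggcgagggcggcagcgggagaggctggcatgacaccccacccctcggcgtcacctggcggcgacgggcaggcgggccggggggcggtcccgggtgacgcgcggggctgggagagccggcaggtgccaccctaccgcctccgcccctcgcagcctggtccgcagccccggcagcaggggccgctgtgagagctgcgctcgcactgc
The Fasn window holds CCAAT at 3 places, starting at bases 161, 189 and 192, the last 2 overlapping, and the Acly window at 1, starting at base 288. The Aacs and Elovl7 windows hold none. Both strands were searched. CCAAT was in 20 of the 38 windows of the 28 members with a window in the RefSeq promoter set, and in 37.4% of all 32851 windows of the same length. The E-box CACGTG was in 5 of the 38 member windows and 7.15% of all windows. The sterol regulatory element TCACNCCAC was in 1 member window, that of Mlxipl, and 1.24% of all windows. A match is a stretch of letters, and binding was not measured.

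Of the 9 desaturases and elongases, 5 were negative in AEG1_MYC against WT livers (median -0.06), 6 in MYC against WT (median -0.22) and 4 in AEG1 against WT (median 0.12). In AEG1_MYC against AEG1 6 of 9 were negative (median -0.29). Without overlap 4 were lower (44.4%, against 8.24% of all genes) and 1 higher (11.1%, against 9.6%). There 6 had an unadjusted p under 0.05 in edgeR, as had 17.4% of all genes, and of these Elovl7 and Scd2 were positive. The group held Elovl7, which was called in 2 contrasts. Elovl7, an elongase of long-chain fatty acids, was at 8.03, 3.65 and 3.15 CPM in AEG1_MYC livers. It was at 0.933, 0.557 and 1.40 CPM in MYC livers and at 0.279, 0.340 and 0.502 CPM in AEG1 livers, against 0.397, 0.230 and 0.897 CPM in WT livers. All 3 AEG1_MYC livers lay above the 9 other libraries. Elovl7 rose in AEG1_MYC against WT livers (3.29 ± 0.56, or 9.80-fold, adjusted p = 0.0475) and against AEG1 livers (3.70 ± 0.57, adjusted p = 0.0299). The difference from MYC livers was 2.35 ± 0.53 (adjusted p = 0.118 in edgeR), and the interaction was 2.75 ± 0.79 (adjusted p = 0.364). The change rests on 464 reads in AEG1_MYC and 40 reads in WT livers, a ratio of 10.03 with an exact 95% interval of 7.26 to 14.2 that covers counting error only. Without AEG1_MYC replicate 1 the difference from WT was 2.77 (adjusted p = 0.0598 in edgeR) and that from AEG1 3.17 (adjusted p = 0.0404). Without AEG1_MYC replicate 2 the difference from WT was 3.47 (adjusted p = 0.0628 in edgeR) and that from AEG1 3.87 (adjusted p = 0.0453). The call against AEG1 was lost without AEG1 replicate 1, 2 or 3 (adjusted p = 0.186, 0.216 and 0.0665) or MYC replicate 1. With AEG1_MYC replicate 3 as the lone library of its genotype, assumed to vary like the other groups, it was 2.65 against WT (adjusted p = 0.437). Per kilobase of exon Elovl7 was 1.23 CPM in AEG1_MYC livers, where Elovl5 was 231 and Elovl6 28.9 CPM per kilobase.

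Elovl6, which lengthens palmitate to stearate, was higher in every AEG1 liver than in every WT liver. It was at 231, 103 and 198 CPM in AEG1_MYC livers. It was at 192, 249 and 183 CPM in MYC livers and at 347, 698 and 949 CPM in AEG1 livers, against 159, 279 and 234 CPM in WT livers. AEG1 livers stood above all 9 other libraries. AEG1 differed from WT by 1.57 ± 0.39 (unadjusted p = 0.00196 in edgeR, adjusted p = 0.9997). AEG1_MYC differed from AEG1 by -1.91 ± 0.39 (adjusted p = 0.0771 in edgeR). Neither was called. DESeq2 called both (adjusted p = 0.0324 for AEG1 against WT). The interaction was -1.80 ± 0.54 (adjusted p = 0.384 in edgeR). Without AEG1 replicate 3 the difference of AEG1 from WT was 1.23.

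Elovl5, an elongase of polyunsaturated chains, was at 674, 319 and 936 CPM in AEG1_MYC livers. It was at 1338, 1283 and 845 CPM in MYC livers and at 1223, 2153 and 1489 CPM in AEG1 livers, against 1546, 2202 and 1569 CPM in WT livers. All AEG1_MYC and all MYC livers lay below all WT livers. AEG1_MYC differed from WT by -1.46 ± 0.37 (adjusted p = 0.123 in edgeR, called in DESeq2), and by -1.14 without replicate 2. Elovl2, which also acts on polyunsaturated chains, averaged 781 ± 346 CPM in AEG1_MYC, 888 ± 138 in MYC and 1018 ± 139.7 in AEG1, against 1080.3 ± 24.3 in WT livers. Elovl1, an elongase of very long chains, stayed within 32.3 to 50.2 CPM in all libraries, and its interaction was -0.46 ± 0.17 (adjusted p = 0.488 in edgeR). The desaturases of polyunsaturated fatty acids were not called by edgeR: Fads1 ran from 676 to 1224 CPM and Fads2 from 443 to 847 CPM over the 12 libraries. For Fads1 all AEG1_MYC livers lay above all MYC livers, with a difference of 0.33 ± 0.19.

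The stearoyl-CoA desaturases, which make monounsaturated fatty acids, gave the highest and one of the lower levels of the set. Scd1, the main isoform of liver, was at 15392, 3148 and 9510.0 CPM in AEG1_MYC livers. It was at 19090.1, 11170.4 and 9418 CPM in MYC livers and at 15628, 25273 and 27339 CPM in AEG1 livers, against 16033, 23402 and 12427 CPM in WT livers. The genotypes overlapped, except that all AEG1_MYC livers lay below all AEG1 livers. Scd1 ranked first of the 35 per kilobase in WT livers, at 3578 CPM per kilobase, against 1.20 for Scd2. Scd2 was at 9.75, 67.3 and 7.42 CPM in AEG1_MYC livers. It was at 7.25, 9.48 and 10.9 CPM in MYC livers and at 7.03, 7.62 and 12.4 CPM in AEG1 livers, against 5.73, 6.09 and 7.77 CPM in WT livers. Its high value was that of AEG1_MYC replicate 2 alone. AEG1_MYC differed from WT by 2.11 ± 0.71 (adjusted p = 0.186 in edgeR, called in DESeq2) and from MYC by 1.61 ± 0.69 (adjusted p = 0.307 in edgeR). These differences became 0.40 and -0.10 without that library. Scd1 to Scd4 are close copies of each other, so their reads are uncertain where they could not be placed uniquely.

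The 3 regulators were not called by edgeR, DESeq2 or limma in any contrast. In edgeR, 0 of them had an unadjusted p under 0.05 in AEG1_MYC, MYC or AEG1 against WT, and 1, Mlxipl, had one in AEG1_MYC against MYC and in the interaction. Srebf1 was at 226, 144 and 428 CPM in AEG1_MYC livers. It was at 383, 317 and 391 CPM in MYC livers and at 357, 266 and 492 CPM in AEG1 livers, against 369.7, 319.5 and 478 CPM in WT livers. It was low in AEG1_MYC replicates 1 and 2 and within the WT range in replicate 3, with a difference from WT of -0.55 ± 0.35. These counts do not separate the SREBP-1a and SREBP-1c transcripts of Srebf1. Mlxipl was at 252, 345 and 487 CPM in AEG1_MYC livers. It was at 570.3, 559 and 423 CPM in MYC livers and at 555, 592 and 398 CPM in AEG1 livers, against 389.7, 435 and 427 CPM in WT livers. Its differences from WT were -0.21 ± 0.23 in AEG1_MYC, 0.31 ± 0.23 in MYC and 0.30 ± 0.23 in AEG1 livers. AEG1_MYC differed from MYC livers by -0.52 ± 0.23, and the interaction was -0.82 ± 0.33. Without AEG1_MYC replicate 1 its differences from WT and MYC were 0.01 and -0.31. Thrsp, the thyroid hormone responsive protein Spot 14 that promotes fatty acid synthesis, ranged most of the 3. It was at 1163, 92.3 and 494 CPM in AEG1_MYC livers. It was at 243, 460.1 and 559 CPM in MYC livers and at 427, 624 and 2104 CPM in AEG1 livers, against 489, 299 and 659.9 CPM in WT livers. Its extremes were AEG1 replicate 3 and AEG1_MYC replicate 2, the livers that were also highest and lowest for most synthesis genes.

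The 10 genes of fatty acid activation and glycerolipid assembly held the largest called change of the set. Against WT, 5 of 10 were positive in AEG1_MYC livers (median -0.01), 2 of 10 in MYC livers (median -0.23) and 9 of 10 in AEG1 livers (median 0.17). Mogat2, a monoacylglycerol acyltransferase best known from the intestine, was at 19.9, 11.0 and 1.83 CPM in AEG1_MYC livers. It was at 0.207, 0.446 and 0.422 CPM in MYC livers and at 0.279, 0.631 and 0.803 CPM in AEG1 livers, against 0.0305, 0.306 and 0.299 CPM in WT livers. Each AEG1_MYC liver lay above the 9 other livers, though replicate 3 lay far below replicates 1 and 2. Mogat2 rose in AEG1_MYC against WT livers by 5.73 ± 0.94 (52.9-fold, adjusted p = 0.0461). The difference was 4.89 ± 0.87 against MYC (adjusted p = 0.0609 in edgeR) and 4.25 ± 0.84 against AEG1 livers (adjusted p = 0.0740), and the interaction was 3.41 ± 1.31 (adjusted p = 0.488). AEG1_MYC livers held 1029 reads of Mogat2 and WT livers 16, a ratio of 55.6 with an exact 95% interval of 34.1 to 97.7 that covers counting error only and not the spread between livers. Of the 1029 reads, 601 were of replicate 1, and without it the difference from WT was 4.98 (adjusted p = 0.0558 in edgeR). Without AEG1_MYC replicate 2 the difference from WT was 5.72 (adjusted p = 0.0785 in edgeR), and with replicate 3 as the lone AEG1_MYC library 3.15 (adjusted p = 0.499).

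Mogat1 and Dgat2 belong to the same protein family as Mogat2, and Dgat2, which adds the last acyl chain of triglyceride, is the neighbour of Mogat2 in the RefSeq gene order. Dgat2 was at 750.5, 472 and 684 CPM in AEG1_MYC livers. It was at 507, 527 and 699 CPM in MYC livers and at 632, 705 and 708 CPM in AEG1 livers, against 698, 527 and 818 CPM in WT livers. Its genotypes overlapped, with -0.10 ± 0.21 for AEG1_MYC against WT. Mogat1 was at 8.49, 0.593 and 1.96 CPM in AEG1_MYC livers. It was at 2.25, 1.73 and 2.27 CPM in MYC livers and at 2.65, 4.46 and 11.5 CPM in AEG1 livers, against 1.19, 4.79 and 1.28 CPM in WT livers. It was highest in AEG1 replicate 3 and lowest in AEG1_MYC replicate 2, and it was not called (0.60 ± 0.88, AEG1_MYC against WT). Per kilobase in AEG1_MYC livers, Dgat2 averaged 281, Mogat2 6.12 and Mogat1 2.99 CPM, and in WT livers 301, 0.119 and 1.96 CPM. Dgat1, an unrelated enzyme for the same last step, stayed within 20.1 to 28.4 CPM.

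Markers of intestine and pancreas were read beside Mogat2. Of 8 enterocyte markers, Cdx1 and Sis were at 0 in all libraries and Cdx2 in all AEG1_MYC livers. The enterocyte markers summed to 311 to 1197 CPM in AEG1_MYC, 990 to 1460.3 CPM in MYC and 631 to 1472 CPM in AEG1, against 836 to 1740.1 CPM in WT livers, and most of this was Apoa4, which liver also makes. Vil1 (villin) was at 6.10 CPM in AEG1_MYC replicate 2 and at most 1.16 CPM in every other library. Of 8 acinar markers, Prss2 and Cpa1 were at 0 in all libraries, and their sums were 14.9 to 43.0 CPM in AEG1_MYC, 26.7 to 35.5 in MYC and 17.3 to 44.3 in AEG1, against 36.5 to 58.7 in WT livers. The 8 genes of pericentral hepatocytes were read as well. They summed to 11651 to 32080 CPM in AEG1_MYC, 5013 to 7267 in MYC and 6354 to 8816 in AEG1, against 7706 to 10769 in WT livers. Of these 8, all had a positive log2 fold change in AEG1_MYC against WT (median 1.66), and Rhbg, an ammonia transporter, was called (3.37 ± 0.44, adjusted p = 0.0156 in edgeR). In MYC and in AEG1 against WT, 7 of these 8 were negative (medians -0.46 and -0.41). There Mogat2 was 0.83 and 1.48, and Elovl7 0.94 and -0.40. The part of the pericentral genes in the results was not tested.

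The other genes of activation and assembly were not called by edgeR. Acsl5, an acyl-CoA synthetase that activates long-chain fatty acids, was at 604, 295 and 618 CPM in AEG1_MYC livers. It was at 752, 704 and 575 CPM in MYC livers and at 764, 919 and 917 CPM in AEG1 livers, against 837, 869.7 and 821 CPM in WT livers. All AEG1_MYC and all MYC livers lay below all WT livers, and AEG1_MYC differed from WT by -0.74 ± 0.24 (adjusted p = 0.183 in edgeR) and by -0.46 without replicate 2. Acsl3, another such synthetase, averaged 49.3 ± 7.89 CPM in AEG1_MYC, 54.3 ± 5.57 in MYC and 67.6 ± 25.2 in AEG1, against 64.9 ± 8.66 in WT livers (SD, n = 3 each). Gpam, the mitochondrial acyltransferase of the first step on glycerol 3-phosphate, averaged 313 ± 142 CPM in AEG1_MYC, 398 ± 65.8 in MYC and 734 ± 346 in AEG1, against 435 ± 109.8 in WT livers. DESeq2 called Acsl5 and Gpam lower in AEG1_MYC than in AEG1 livers, where it called 5.13% of all genes. Agpat2, the acyltransferase of the next step, was at 99.9, 42.1 and 87.8 CPM in AEG1_MYC livers, 139, 166 and 103 CPM in MYC livers and 123, 140.1 and 100.05 CPM in AEG1 livers, against 105, 145 and 97.5 CPM in WT livers. It was below all MYC and AEG1 livers in every AEG1_MYC liver, and differed from MYC by -0.83 ± 0.30 (adjusted p = 0.249 in edgeR), or by -0.54 without AEG1_MYC replicate 2.

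The lipins, phosphatases that make diacylglycerol, spread widely within genotypes. Lpin2 was at 743, 788 and 598 CPM in AEG1_MYC livers. It was at 181, 244 and 351 CPM in MYC livers and at 203, 332 and 922 CPM in AEG1 livers, against 519, 309.7 and 378 CPM in WT livers. The AEG1_MYC livers lay above all MYC and WT livers, while AEG1 replicate 3 was the highest of all 12. Lpin2 differed by 1.46 ± 0.48 between AEG1_MYC and MYC (adjusted p = 0.230 in edgeR, 0.0439 in DESeq2). Lpin1 was at 595, 436 and 161 CPM in AEG1_MYC livers. It was at 53.7, 52.4 and 181 CPM in MYC livers and at 69.6, 100.4 and 685 CPM in AEG1 livers, against 319, 99.99 and 153 CPM in WT livers. Its genotypes all overlapped, and AEG1 replicate 3 was the highest library. Clock genes varied between the same libraries. Per1, a gene of the circadian clock, was at 74.0, 45.5 and 47.6 CPM in AEG1_MYC livers. It was at 1.97, 3.79 and 16.1 CPM in MYC livers and at 3.01, 11.3 and 67.9 CPM in AEG1 livers, against 41.9, 7.27 and 41.1 CPM in WT livers. Arntl, a gene with the opposite daily phase, was at 2.78, 8.24 and 2.09 CPM in AEG1_MYC livers. It was at 48.7, 49.7 and 4.27 CPM in MYC livers and at 26.5, 54.5 and 1.91 CPM in AEG1 livers, against 21.4, 35.8 and 11.1 CPM in WT livers. The AEG1_MYC livers, MYC replicate 3 and AEG1 replicate 3 were thus all low in Arntl, under every WT liver. The 12 clock genes summed to 817 to 1066 CPM in AEG1_MYC, 327 to 812 in MYC and 376 to 984 in AEG1, against 434 to 837 in WT livers. That sum mixes genes of opposite phase. Of the 12, 4 were higher in AEG1_MYC than in WT livers without overlap (33.3%, against 9.81% of all genes). Another 3 were lower without overlap (25%, against 9.65%). The 9 genes of the fasting response summed to 4456 to 7337 CPM in AEG1_MYC, 4954 to 6239.6 in MYC and 4776 to 6851 in AEG1, against 6692 to 7848 in WT livers. By gene, 5 of 9 were positive in AEG1_MYC against WT (median 0.04), 6 against AEG1 (median 0.55) and 5 against MYC (median 0.48). Without overlap, 2, 2 and 3 were higher (22.2%, 22.2% and 33.3%, against 9.81%, 9.6% and 9.64% of all genes) and 0 lower. In MYC and in AEG1 against WT, 1 of 9 was positive (medians -0.23 and -0.27). The time of collection and the feeding state are not in the labels, and their part in these values was not tested.

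**Figure D3:**
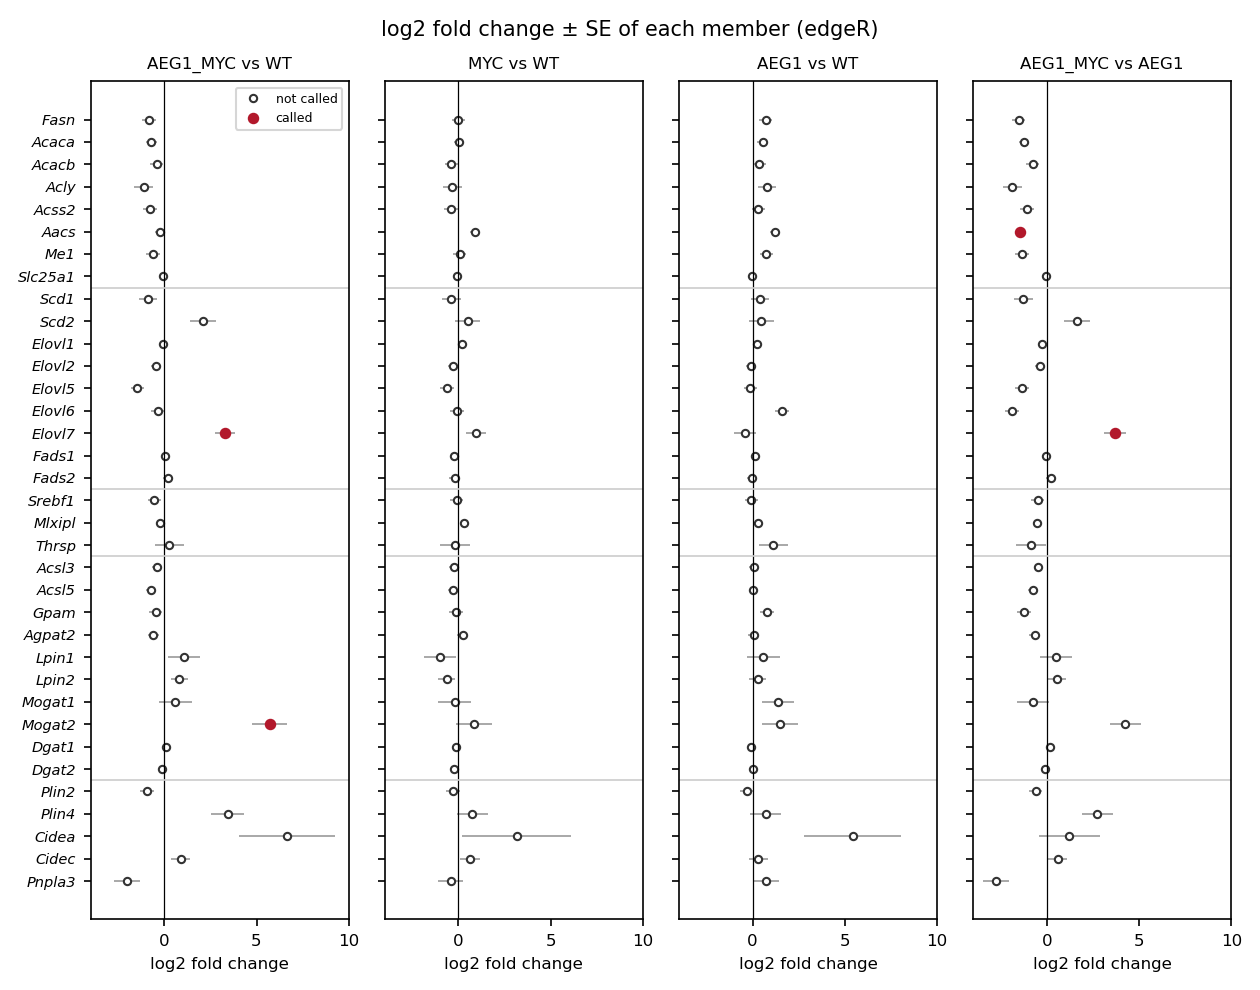
log2 fold change (points) ± SE (lines) of the 35 members in 4 contrasts, AEG1_MYC, MYC and AEG1 against WT and AEG1_MYC against AEG1, with members called at an adjusted p under 0.05 filled. Filled points are Mogat2 (5.73) and Elovl7 (3.29) against WT, and Elovl7 (3.70) and Aacs (-1.46) against AEG1; grey rules separate the roles.

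The 5 genes of lipid droplet storage diverged by gene, and none was called by edgeR. Of these 5, 2 had a negative log2 fold change in each of AEG1_MYC and MYC against WT and 1 in AEG1 against WT. Plin2, the main coat protein of liver lipid droplets, was at 356, 208 and 473 CPM in AEG1_MYC livers. It was at 586, 607 and 431 CPM in MYC livers and at 487, 657 and 438 CPM in AEG1 livers, against 509.8, 1051 and 419 CPM in WT livers. The genotypes overlapped, with a difference of -0.93 ± 0.37 between AEG1_MYC and WT. Pnpla3, a droplet protein with lipase and acyltransferase activity, was at 13.9, 4.53 and 6.93 CPM in AEG1_MYC livers. It was at 25.2, 39.0 and 12.5 CPM in MYC livers and at 21.9, 83.3 and 66.2 CPM in AEG1 livers, against 68.0, 18.3 and 16.5 CPM in WT livers. All AEG1_MYC livers lay below all AEG1 and WT livers. The difference was -2.75 ± 0.73 from AEG1 (adjusted p = 0.120 in edgeR, 0.00152 in DESeq2) and -2.02 ± 0.71 from WT (adjusted p = 0.198 in edgeR, 0.0389 in DESeq2), or -1.03 from WT without WT replicate 1.

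Plin4, a perilipin known mostly from adipocytes, was at 59.5, 52.5 and 2.504 CPM in AEG1_MYC livers. It was at 5.60, 5.57 and 6.48 CPM in MYC livers and at 3.96, 4.32 and 8.79 CPM in AEG1 livers, against 5.61, 2.91 and 1.88 CPM in WT livers. AEG1_MYC replicates 1 and 2 lay above all other libraries and replicate 3 within the WT range. AEG1_MYC differed from WT by 3.45 ± 0.89 (adjusted p = 0.128 in edgeR, called in DESeq2) and from MYC by 2.70 ± 0.85 (adjusted p = 0.217 in edgeR). With replicate 3 as the lone AEG1_MYC library these differences were -0.48 and -1.23, and without replicate 3 the difference from WT was 4.01 (adjusted p = 0.00343 in edgeR). Cidea, which joins droplets in brown fat and is induced in fatty liver, was read in 254, 2 and 1 reads in AEG1_MYC livers and 1, 1 and 136 reads in AEG1 livers, with 25 reads in all 3 MYC livers and 2 in all 3 WT livers. Its reads came almost entirely from AEG1_MYC replicate 1 (8.39 CPM) and AEG1 replicate 3 (3.41 CPM). The ratio to WT was 111 (exact 95% interval 30.5 to 923) in AEG1_MYC, 10.01 (2.496 to 87.2) in MYC and 59.0 (16.0 to 492) in AEG1 livers, intervals that cover counting error only. In edgeR AEG1_MYC differed from WT by 6.65 ± 2.58 (adjusted p = 0.230), and by 0.85 without AEG1_MYC replicate 1. Cidec, a paralog of Cidea that enlarges droplets, averaged 4.35 ± 2.83 CPM in AEG1_MYC, 3.62 ± 0.497 in MYC and 2.88 ± 1.56 in AEG1, against 2.34 ± 1.03 in WT livers. Every MYC liver lay above every WT liver for Cidec, with a difference of 0.62 ± 0.52.

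Adipocyte markers were read beside Plin4 and Cidea. The 7 markers summed to 7.90 to 49.6 CPM in AEG1_MYC, 6.56 to 20.5 in MYC and 5.83 to 10.1 in AEG1, against 5.17 to 11.5 in WT livers. Ucp1 was at 0 in all libraries, and Plin1 and Lep were at 0 in all AEG1_MYC and AEG1 livers. Most of each sum was Fabp4, which macrophages and endothelial cells also express and which was at 49.5 CPM in AEG1_MYC replicate 2. The regulator Pparg was at 15.2, 18.5 and 5.49 CPM in AEG1_MYC livers. It was at 7.50, 5.60 and 3.32 CPM in MYC livers and at 3.65, 4.56 and 18.0 CPM in AEG1 livers, against 7.05, 1.03 and 1.32 CPM in WT livers. Of the 3 libraries above 10 CPM for Pparg, AEG1_MYC replicate 1 and AEG1 replicate 3 were those that held most Cidea reads. The other, AEG1_MYC replicate 2, was the highest for Pparg (18.5 CPM) and had 2 Cidea reads. Pparg was chosen after its values were seen, and a link between the 2 genes was not tested.

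**Figure D4:**
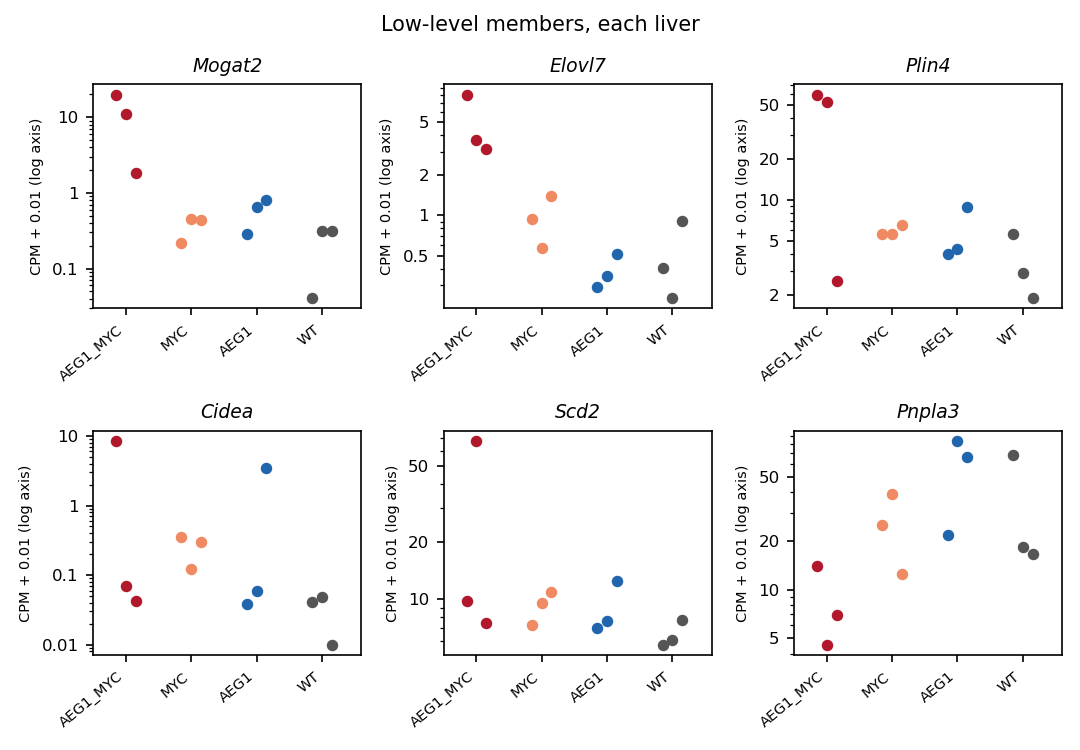
CPM + 0.01 on a log axis for 6 members of low level in each liver (points, n = 3 per genotype, with no mean drawn). Mogat2 and Elovl7 are above all other genotypes in each AEG1_MYC liver, while the high values of Plin4 come from AEG1_MYC replicates 1 and 2, of Scd2 from replicate 2 (67.3 CPM) and of Cidea from AEG1_MYC replicate 1 (8.39 CPM) and AEG1 replicate 3 (3.41 CPM).

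Another 65 genes of the pathway outside the 35 were read for context, of which 64 were tested and Plin1 was not. None was called by edgeR in any contrast. Unadjusted p under 0.05 was reached by 21 in AEG1_MYC against WT (17.2% of all genes), 1 in MYC against WT (3.47%), 4 in AEG1 against WT (3.92%), 16 in AEG1_MYC against AEG1 (17.4%) and 12 in AEG1_MYC against MYC (15.2%). DESeq2 called 5, 0, 0, 5 and 4 of them, where it called 4.77%, 0.205%, 0.11%, 5.13% and 3.44% of all genes, and limma 0 in each. Its calls against WT were Elovl3, Insig2, Lpl, Scap and Vldlr. Those against AEG1 were Elovl3, Gpat2, Pgd, Pnpla2 and Vldlr, and those against MYC Gpat2, Insig2, Pnpla2 and Vldlr. In the interaction 4 had an unadjusted p under 0.05 in edgeR (9.25% of all genes). There DESeq2 called 1, Pnpla2 (1.17% of all genes), and limma 0 (0.0365%). In AEG1_MYC against WT 41 of 64 were negative (median -0.11), in MYC against WT 43 (median -0.09), and in AEG1 against WT 33 (median -0.01). The 8 genes of NADPH and carbon supply leaned as follows: 7 of 8 were negative in AEG1_MYC against WT (median -0.22), 7 of 8 positive in AEG1 against WT (median 0.11) and 8 of 8 negative in AEG1_MYC against AEG1 (median -0.35). Pgd, which makes NADPH in the pentose phosphate pathway, differed by -0.62 ± 0.16 in AEG1_MYC against AEG1 (adjusted p = 0.112 in edgeR). Pklr, liver pyruvate kinase and a known target of ChREBP, differed by 0.67 ± 0.30 in AEG1 against WT and by -0.79 ± 0.30 in AEG1_MYC against AEG1.

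Among the 15 other regulators, Insig2, which holds SREBP in the endoplasmic reticulum, was at 148, 135 and 224 CPM in AEG1_MYC livers. It was at 553, 534 and 266 CPM in MYC livers and at 304, 452 and 265 CPM in AEG1 livers, against 315, 600.3 and 379 CPM in WT livers. All AEG1_MYC livers lay below the 9 others, with -1.35 ± 0.35 against WT (adjusted p = 0.128 in edgeR). Scap, the escort of SREBP to the Golgi, differed from WT by -0.74 ± 0.22 in AEG1_MYC livers (adjusted p = 0.160 in edgeR). Elovl3, an elongase outside the 35, was at 49.7, 6.16 and 53.0 CPM in AEG1_MYC livers. It was at 243, 361 and 73.2 CPM in MYC livers and at 221, 583 and 78.3 CPM in AEG1 livers, against 352, 449.6 and 223 CPM in WT livers. AEG1_MYC livers were again below the 9 others, and MYC replicate 3 and AEG1 replicate 3 were the lowest of their genotypes. The difference from WT was -3.23 ± 0.92 (adjusted p = 0.150 in edgeR). Gpat2, an acyltransferase of glycerol 3-phosphate, differed by -1.61 ± 0.36 in AEG1_MYC against AEG1 (adjusted p = 0.0858 in edgeR).

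Genes of lipolysis and uptake were not called by edgeR either, though DESeq2 called Pnpla2, Vldlr and Lpl in the tests named above. Pnpla2, the adipose triglyceride lipase that starts triglyceride breakdown, was at 84.5, 88.1 and 75.1 CPM in AEG1_MYC livers. It was at 44.1, 41.0 and 60.9 CPM in MYC livers and at 40.0, 40.4 and 60.6 CPM in AEG1 livers, against 65.9, 52.0 and 57.9 CPM in WT livers. All AEG1_MYC livers lay above the 9 others, with 0.81 ± 0.19 against AEG1 (adjusted p = 0.0997 in edgeR) and 0.50 ± 0.19 against WT (adjusted p = 0.226). Vldlr, a lipoprotein receptor, was at 8.09, 20.7 and 6.45 CPM in AEG1_MYC livers. It was at 3.66, 1.95 and 3.53 CPM in MYC livers and at 4.04, 4.03 and 2.54 CPM in AEG1 livers, against 3.72, 2.41 and 5.55 CPM in WT livers, a difference of 1.60 ± 0.47 from WT (adjusted p = 0.160 in edgeR), or 0.90 without AEG1_MYC replicate 2. Lipoprotein lipase (Lpl) was at 16.9, 244 and 49.4 CPM in AEG1_MYC livers. It was at 23.2, 21.7 and 26.1 CPM in MYC livers and at 16.6, 19.6 and 25.3 CPM in AEG1 livers, against 31.6, 17.6 and 8.71 CPM in WT livers, its highest value being that of AEG1_MYC replicate 2. Its difference from WT, 2.42 ± 0.79 (adjusted p = 0.183 in edgeR), was 0.78 without that library. Of the 5 genes of triglyceride export, 4 were negative in AEG1_MYC against WT (median -0.23) and 3 were positive in AEG1 against WT (median 0.04).

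Some counts are uncertain because genes overlap and the sources used here do not say whether reads were counted by strand. In the GENCODE M21 annotation Mogat1 shares 189 bases with BC035947 on the opposite strand and Plin4 shares 8 bases with Hdgfl2, while Mogat2, Elovl7, Aacs, Fasn and Acly share none. Acsl3, Acsl5, Acss2, Elovl1, Me1, Pnpla3, Scd2 and Srebf1 each overlap another gene as well.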

How the data were processed

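RNA of 12 mouse livers was sequenced. Per the submitters' processing notes, CASAVA 1.8.2, TopHat2 2.0.7, HTSeq and the genome build mm9 were used. The authors deposited raw read counts per gene symbol for each library. The HTSeq version, annotation and strand setting are not given in the sources used here. The 5 HTSeq summary lines were left out. Replicate numbers are in accession order.

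Counts were tested with edgeR 4.0.16 in R 4.3.3: TMM scaling, filterByExpr, and the robust quasi-likelihood fit over all 12 libraries, with 5 pairwise contrasts, the interaction and an F test of any difference. Benjamini-Hochberg adjustment ran over all 13684 genes tested; 4439 genes had 0 reads. Unless another tool is named, p-values are from this test. CPM used the scaled library sizes. Alternatives were RLE and upper-quartile scaling, other filters, DESeq2 1.42.0, limma 3.58.1 and leaving out libraries. Scripts were tested on simulated data. Figures used matplotlib 3.10.9 in Python 3.11.15.

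Exon lengths are from GENCODE M21 (GRCm38), not the build of the counts, and were used for levels per kilobase. The members and all lists were chosen with earlier results of these data known. Full statistics are given for members called, or among the 8 lowest unadjusted p under 0.05 of a contrast; up to 3 genes of each other pathway list were eligible per contrast, and Mogat1, Mogat2, Dgat2, Scd1, Scd2, Srebf1 and Mlxipl are described whatever their values. Pparg was chosen after its values were seen. Values without AEG1_MYC replicate 1 or 2 for members and pathway genes beyond the named ones were added after seeing the data.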

Additional observations from a re-analysis of the deposited data

How the results depend on the processing

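The members called in AEG1_MYC against WT numbered 2. They numbered 1 with no filter, 1 with CPM of at least 1 in 3 libraries, 6 in DESeq2, 1 in limma, and 0 with only the libraries compared or with AEG1_MYC replicate 3 as the lone library of its genotype; leaving out single libraries gave 0 to 6. In AEG1_MYC against AEG1 they numbered 2, and 1 under upper-quartile scaling, 13 in DESeq2, 1 in limma, and 0 with only the libraries compared or replicate 3 alone; leaving out single libraries gave 0 to 11. In the test of any difference they numbered 2, and 12 in DESeq2, 0 in limma and 0 with replicate 3 alone; leaving out single libraries gave 0 to 4. In AEG1 against WT DESeq2 called 2 in place of 0. In AEG1_MYC against MYC DESeq2 called 5 in place of 0 and leaving out single libraries gave 0 to 4, and in the interaction DESeq2 called 1 in place of 0 and leaving out single libraries gave 0 to 1. In MYC against WT every alternative run gave 0.

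Over all genes the calls in AEG1_MYC against WT, 36, ran from 2 to 687 across the alternatives, and those in AEG1_MYC against AEG1, 44, from 2 to 700. Leaving out single libraries gave 6 to 687 and 4 to 630 calls over all genes in these 2 contrasts. It gave 23 to 292 in the test of any difference, 6 to 450 in AEG1_MYC against MYC and 1 to 32 in the interaction. The median log2 fold change of the members stayed negative in AEG1_MYC against WT (-0.41 to -0.07) and in AEG1_MYC against AEG1 (-0.74 to -0.31), and positive in AEG1 against WT (0.13 to 0.59). Of 35 log2 fold changes of named members, 3 changed sign under some alternative. Scd2 in AEG1_MYC against MYC was 1.61, and -0.31 with replicate 3 alone and -0.10 to 2.08 when single libraries were left out. Plin4 with replicate 3 alone was -0.48 against WT and -1.23 against MYC, where it had been 3.45 and 2.70. The cause was not tested. No paired analysis was possible because the labels give no replicate numbers shared between genotypes.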
